A study of Mus musculus with 10 samples.

Results

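Mettl21e is a mouse gene for a methyltransferase-like protein that is enriched in skeletal muscle. It is 1 of 18193 genes that the platform annotation pairs with a probe set of their own. All probe sets annotated to that symbol alone were taken, and 1 of the 45101 on the array, 1458635_at, met this rule. Gastrocnemius muscle of the calf was taken from 10 males, each 7.5 months old and of C57BL/6 background, and its RNA was hybridised to 1 array per mouse. The knockout group (titled Floxed_Mstn, n = 5) had floxed myostatin genes, that is, genes flanked by sites that the Cre recombinase recombines, and the control group (titled WT_Mstn, n = 5) had normal myostatin genes. Every mouse of both groups carried the CAGG-CreER transgene and received 8 tamoxifen injections from 4 months of age. The CAGG promoter is broadly active and tamoxifen switches CreER on, so the deletion was not directed to muscle fibres alone. No probe set is named Mstn in the annotation, so these arrays hold no named measure of the deleted transcript.

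Proteins of the METTL21 family take a methyl group from S-adenosylmethionine and add it to lysine residues of other proteins, many of them chaperones. Mettl21a acts on Hsp70 chaperones, and Vcpkmt, also called Mettl21d, acts on the AAA ATPase Vcp, which extracts ubiquitinated proteins for the proteasome. In mouse muscle, Mettl21e has been reported to act on Vcp and to limit proteasome activity, and in humans the counterpart is a pseudogene. Myostatin is a secreted protein that restrains muscle growth.

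Mettl21e was chosen by its difference in log2 intensity between these 2 groups, so its values are given as a description with no test. In knockout muscle its log2 intensity was 9.09, 9.17, 8.49, 9.33 and 9.15 in replicates 1 to 5, against 5.22, 5.58, 5.21, 5.84 and 5.51 in control muscle. All 5 knockouts lay above all 5 controls, knockout 3 was the lowest of its group, and controls 1 and 3 were the lowest of theirs. On the deposited linear scale the intensities were 544, 578, 359.9, 643 and 568 in knockouts, against 37.1, 47.7, 37.0, 57.2 and 45.7 in controls. The mean was 9.05 ± 0.32 in knockouts and 5.47 ± 0.27 in controls (log2 intensity, SD, n = 5 each). The difference was 3.58 ± 0.19 (log2, SE), which is 11.9-fold. The mean linear intensity was 538 ± 106 in knockouts and 45.0 ± 8.4 in controls (SD, n = 5 each).

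**Figure D1:**
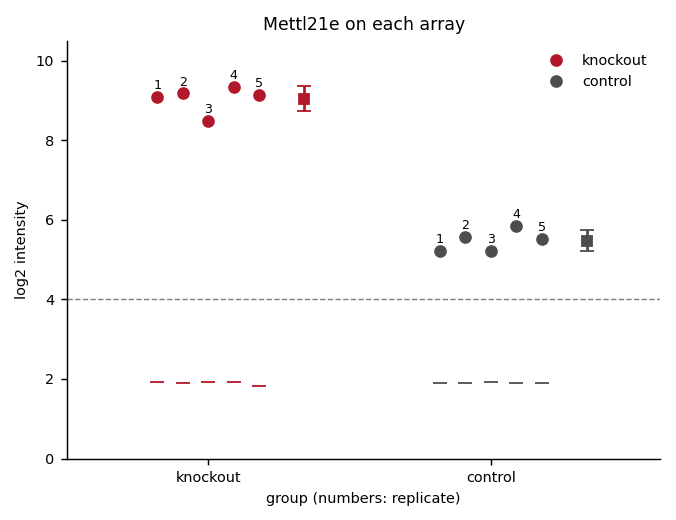
Log2 intensity of Mettl21e on each array, with knockout on the left and control on the right. Points are arrays with their replicate number, squares with bars are the group mean and SD, short dashes are the lowest intensity on the same array, and the dashed line is the level of 4 used to leave out dim probe sets. The 5 knockouts lie between 8.49 and 9.33 and the 5 controls between 5.21 and 5.84.

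Mettl21e was brighter than the dimmest probe set of its array in both groups. That is a low bar, and whether the control signal is expression or background was not tested. The dimmest probe set of each array had an intensity of 3.57 to 3.77 on the linear scale. In log2 units Mettl21e lay 6.58 to 7.42 above it in knockouts and 3.29 to 3.93 above it in controls. GCRMA, the method that made these values, can compress differences among dim probe sets. Of the 25 pairs of a knockout and a control, the closest pair was 2.65 apart on the log2 scale (6.29-fold) and the farthest 4.12 apart (17.4-fold). The spread inside a group was small beside this, 0.84 between the highest and lowest knockout and 0.63 between the highest and lowest control. The within-group spread of Mettl21e was not unusually narrow. Of the 21154 probe sets kept, 33.9% had a larger SD than Mettl21e among knockouts and 40.6% among controls, and the median SD was 0.23 among knockouts and 0.22 among controls.

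Over those 21154 probe sets the median size of a difference was 0.11 on the log2 scale, and 94 probe sets differed by more than 1. Mettl21e had the largest difference in either direction, and the next largest was -2.82, on an unnamed probe set. The empty interval between the groups set it apart further. Its gap of 2.65 between the lowest knockout and the highest control was the only gap over 1 among the probe sets kept, and the second largest was 0.95. The genes with the next largest gaps, picked after their values were seen, were Junos (0.91, lower in knockouts), Rhpn2 (0.86, higher) and Cercam (0.85, lower). Groups did not overlap for 2.06% of the probe sets (436), and 0.0993% (21) passed an adjusted p of 0.05 in a limma fit of the 2 groups, with Benjamini-Hochberg adjustment over all 21154. Both shares count Mettl21e, whose choice used this contrast, so nothing is read from them for it.

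**Figure D2:**
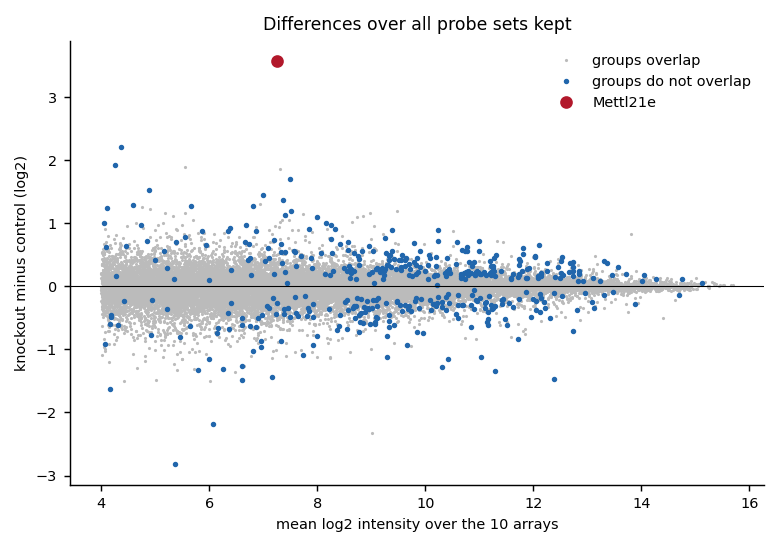
Knockout minus control difference (log2) of each of 21154 probe sets against its mean log2 intensity over the 10 arrays. Blue points are probe sets whose groups do not overlap, grey points are the others, and the red point is Mettl21e, at 3.58.

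Knockout 3 had the lowest Mettl21e value of its group and the highest signal of the bacterial hybridisation controls, RNA added to every array. Those controls (7 probe sets) ran from 12.84 to 13.46 over the 10 arrays and averaged 13.15 ± 0.25 in knockouts and 13.12 ± 0.14 in controls (log2, SD, n = 5 each). With them as a covariate the Mettl21e difference was 3.60, and without the 3 arrays on which they were highest it was 3.68. Without knockout 3 the knockout mean was 9.18 ± 0.10 (SD, n = 4) and the difference 3.71. Leaving out each array in turn gave 3.50 to 3.71, or 11.4-fold to 13.1-fold.

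Markers of the labelled tissue were high in both groups. The summed linear intensity of 7 skeletal muscle fibre markers was 228347 to 241674 in knockouts and 223632 to 235659 in controls. Of 9 marker lists for other cells, 27 members were tested by their brightest probe sets, and 26 had lower values in knockouts. The share of all probe sets with lower values was not counted, and the median difference over all probe sets was -0.0029. Of the 27, 1, Col1a2 (-0.84, limma adjusted p = 0.0494), passed, beside 0.0473% of all probe sets that passed as lower. Summed levels were compared list by list, and no share over the whole array was counted for such sums. The sums did not overlap for fibroblasts (5 of 5 members lower, 12981 to 18753 in knockouts and 19466 to 24997 in controls). Summed levels of the tendon list overlapped (15053 to 29327 in knockouts and 28259 to 34496 in controls). So did those of the endothelial, macrophage, adipocyte, Schwann and T and B cell lists. Sums did not overlap for smooth muscle and pericytes (4 of 4 lower, 7959 to 8940.1 in knockouts and 9146 to 10360.2 in controls) and for satellite cells (2 of 2 tested lower, 455 to 712 in knockouts and 763 to 912 in controls). The T and B cell markers Cd3e and Cd79a, the adipocyte marker Lep and the satellite cell marker Calcr were below the filter. In these bulk samples, fewer cells of a type and less RNA per cell cannot be told apart. The part of these lower markers in the Mettl21e difference was not tested. By the brightest probe sets, the largest difference among these markers was -1.14, for the tendon gene Comp, whose groups overlapped. Dimmer probe sets of the fibroblast markers Col1a2 (-1.15) and Col1a1 (-1.12) passed as well, each with limma adjusted p = 0.0264. Their groups did not overlap. These calls were lost in 9 (Col1a2) and 10 (Col1a1) of 20 alternatives.

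No relative of Mettl21e passed the test. Of 16 other methyltransferases of the same structural class in the list, 12 were tested in limma. Of these, 0 rose, beside 0.052% of all probe sets, and 0 fell, beside 0.0473% of all probe sets. The number with an unadjusted p under 0.05 was 0 as well. For 0 of the 12 did the groups part without overlap, beside 2.06% of all probe sets. Their differences ran from -0.09 to 0.28 with a median of 0.01, against a median of -0.0029 over all probe sets. Mettl21c, the nearest relative on the chromosome, Eef1akmt3, Camkmt and Cskmt were not analysed here, because no probe set carries those symbols alone.

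Among the METTL21 genes proper, Mettl21a had a log2 intensity of 9.02, 9.16, 8.99, 9.09 and 9.26 in knockouts, against 9.12, 9.14, 9.06, 9.00 and 8.97 in controls. The groups overlapped, and the difference of 0.05 had a 95% interval from -0.11 to 0.21 (adjusted p = 0.968). Vcpkmt had 6.53, 6.38, 6.20, 6.37 and 7.01 in knockouts, against 6.77, 6.93, 6.21, 6.37 and 6.43 in controls. These groups overlapped too, with a difference of -0.04 and an interval from -0.45 to 0.36 (adjusted p = 0.991). For both genes the interval leaves out a change of the size seen for Mettl21e.

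The methyltransferases of translation factors gave 0.07 for Eef1akmt1, -0.09 for Eef1akmt2, -0.0013 for Eef2kmt and 0.28 for Eef1aknmt. The last, also called Mettl13, was the most variable of the list, at 6.01 ± 0.75 in knockouts and 5.74 ± 0.90 in controls (SD, n = 5 each), and its interval from -0.78 to 1.33 is wide. The mitochondrial enzymes, which modify ATP synthase, the ADP/ATP carrier and electron transfer flavoprotein, gave 0.09 for Atpsckmt, 0.02 for Antkmt and -0.02 for Etfbkmt. Mettl22 gave 0.06, the histidine methyltransferase Mettl18 -0.0098 and the arginine methyltransferase Mettl23 -0.03. Adjusted p was 0.968 or more for every relative tested. Several of these values are so close to 0 that their sign changed with the processing.

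**Figure D3:**
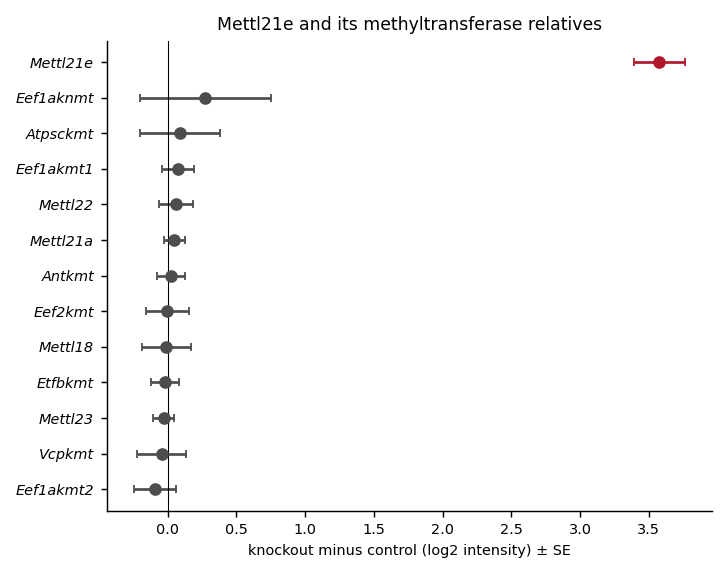
Knockout minus control difference in log2 intensity, with its SE, for Mettl21e (red) and the 12 other methyltransferases tested (grey). The relatives lie between -0.09 and 0.28, and Mettl21e at 3.58.

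Other genes around this enzyme did not pass either. In 6 further lists 102 genes were tested and 0 passed in limma, beside 0.0993% of all probe sets. At that share, a count of 0 says little about these genes. An unadjusted p under 0.05 was found for 7, and the share of all probe sets under that cut was not counted. Vcp itself, the reported partner, had 11.74, 12.07, 11.85, 12.07 and 11.97 in knockouts, against 12.13, 11.86, 11.45, 11.79 and 11.87 in controls. The groups overlapped, and the difference of 0.12 had an interval from -0.16 to 0.40 (adjusted p = 0.927). Among Vcp and its cofactors 0 of 25 tested members passed, with a median of 0.01, and those of lowest p were Nploc4 (0.16), Faf1 (0.16) and Plaa (0.18), with adjusted p of 0.715, 0.717 and 0.766. This list also holds Vcpkmt.

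The list for the methionine cycle and S-adenosylmethionine had a median of 0.08 over 14 tested members. In it Gamt, which makes creatine, had 0.60 (adjusted p = 0.577). Ahcy, which removes the product of methyl transfer, had 0.22 (0.720), and Mthfd1, an enzyme of the folate cycle, had 0.14 (0.758). Among SET and SMYD methyltransferases (15 tested, median 0.05), Smyd1, a muscle-specific regulator of myosin assembly, had 0.25 (adjusted p = 0.469). Setd3, which methylates a histidine of actin, had 0.17 (0.629) and Smyd4 had 0.40 (0.771). Other METTL genes (15 tested, median 0.03) gave -0.13 for Mettl26, 0.18 for Mettl2 and 0.16 for Mettl7a1, with adjusted p of 0.769, 0.830 and 0.872.

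The list of genes that respond to loss of the nerve had a median of 0.17 over 18 tested members. Of these, 13 had higher and 5 lower values in knockouts, and differences ran from -0.56 to 0.75. The 3 members of lowest p are named next. Fbxo32, a ubiquitin ligase of muscle atrophy, had 12.42, 12.43, 12.18, 12.33 and 11.95 in knockouts, against 11.73, 11.73, 11.87, 11.74 and 11.87 in controls. Its groups did not overlap, and the difference of 0.47 did not pass (adjusted p = 0.195). Gadd45a, a growth arrest gene, had 0.67 (0.243) and Trim63, another atrophy ligase, had 0.28 (0.469). Fibre type genes had a median of -0.04 over 16 members, with Myl2 (-0.22), Myh7b (-0.44) and Atp2a2 (-0.28), all of slow or slow-type fibres, at adjusted p of 0.797, 0.839 and 0.875.

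Mettl21e lies on chromosome 1, as does Mstn, 22 places away from it in the order of protein-coding genes of GRCm38.p6. Every knockout carried the floxed allele and no control did, so loss of myostatin and any effect linked to the floxed allele or its chromosome cannot be told apart in this design. Of the 10 protein-coding genes on each side of Mettl21e, 16 were on the array under their own symbol, and Mettl21c, Gm8251, Dnah7b and Dnah7c were not. By the brightest probe set of each gene, 0 of the 16 passed in limma, beside 0.0993% of all probe sets. Of the 16, 6 had an unadjusted p under 0.05, and the share of all probe sets under that cut was not counted. Groups did not overlap for 5 of the 16, or 31.3%, beside 2.06% of all probe sets. Uxs1 and Tpp2 were the 2 with higher values in knockouts, beside 1.17% of all probe sets. Ercc5, Col3a1 and Col5a2 were the 3 with lower values, beside 0.893%. Neighbours were taken by position, and this share was not tested. The differences ran from -1.11 to 0.58, with a median of -0.09.

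Ercc5, an endonuclease of DNA repair, is the gene directly before Mettl21e, and its values went the other way. It had a log2 intensity of 6.95, 8.07, 7.03, 7.72 and 7.50 in knockouts, against 8.51, 8.28, 8.47, 8.28 and 8.35 in controls. The groups did not overlap, but the knockouts were spread widely, at 7.45 ± 0.47 against 8.38 ± 0.11 in controls (SD, n = 5 each). The difference of -0.92 ± 0.20 (log2, SE) did not pass (adjusted p = 0.214), and the other Ercc5 probe set was below the filter. Gulp1, an adaptor for engulfment of dying cells, is the gene directly after Mettl21e. It had 5.58, 5.11, 5.37, 5.79 and 5.70 in knockouts, against 5.24, 5.87, 5.74, 5.23 and 5.63 in controls. Its groups overlapped, with a difference of -0.03 (interval -0.41 to 0.34, adjusted p = 0.991).

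Uxs1, the enzyme that makes UDP-xylose for proteoglycans, lies 8 places before Mettl21e and rose on 1 of its 3 probe sets. On that one, the second brightest, it had 7.86, 7.99, 7.77, 7.92 and 7.67 in knockouts, against 7.18, 7.22, 7.41, 7.29 and 7.29 in controls, a difference of 0.56 ± 0.08 (SE, adjusted p = 0.0470). The brightest probe set gave 0.58 (adjusted p = 0.0967), also with groups that did not overlap, and the dimmest gave 0.11 (adjusted p = 0.989). The call on the second brightest was lost in 15 of 20 alternatives, among them leaving out any array but knockout 5. Tpp2, a peptidase that trims peptides released by the proteasome, lies 7 places before and had 9.28 ± 0.09 in knockouts and 9.06 ± 0.11 in controls (SD, n = 5 each, difference 0.22, adjusted p = 0.505). Its other 4 probe sets gave -0.28 to 0.32.

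The collagen genes Col3a1 and Col5a2 lie 2 and 3 places after Mettl21e and had lower values in knockouts. Col5a2 had 8.87, 9.16, 8.90, 9.35 and 9.69 in knockouts, against 10.16, 10.07, 9.93, 10.18 and 10.27 in controls. Its groups did not overlap, and its difference of -0.93 ± 0.15 (SE) did not pass (adjusted p = 0.0838). It passed in 6 of 20 alternatives, and its other probe set gave a difference of -0.31. Col3a1 averaged 11.91 ± 0.24 in knockouts and 12.32 ± 0.07 in controls (SD, n = 5 each, difference -0.41, adjusted p = 0.376), and its other probe set gave -0.12.

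The remaining neighbours gave 0.06 for the adaptor Nck2, -1.11 for Ecrg4, 0.04 for Tex30, -0.0012 for the glucosyltransferase Poglut2 and -0.10 for Bivm before Mettl21e. After it they gave 0.06 for the ribosome assembly gene Wdr75, -0.07 for the iron exporter Slc40a1 and -0.38 for the zinc importer Slc39a10, whose groups overlapped. Tmeff2 gave -0.53 and Cavin2, a protein of caveolae, -0.11. Adjusted p was 0.342 or more for each of these 10 genes. Over the whole of chromosome 1, leaving out Mettl21e, 6 of 1110 probe sets (0.541%) passed, beside 14 of 16814 (0.0833%) on the other chromosomes. That difference in share was not tested.

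**Figure D4:**
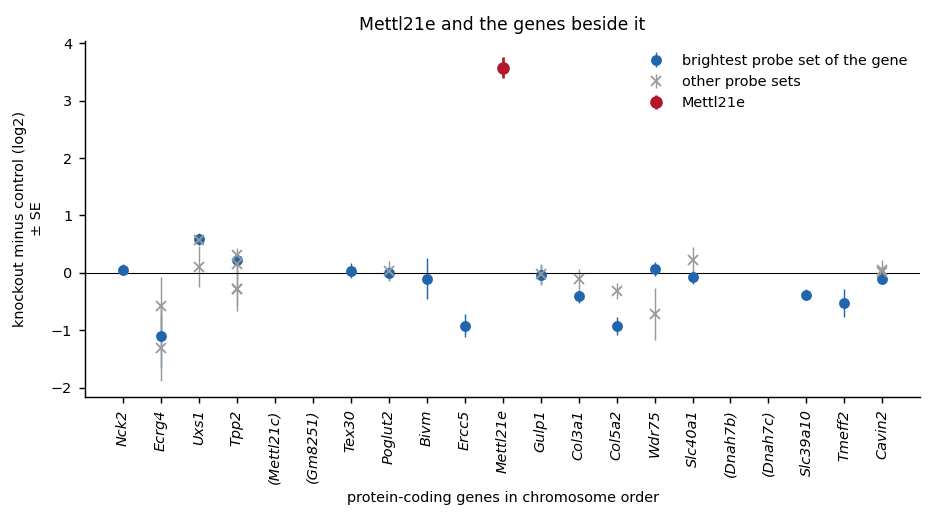
Knockout minus control difference (log2, with SE) of Mettl21e (red) and the protein-coding genes beside it in chromosome order. Blue circles are the brightest probe set of a gene, grey crosses its other tested probe sets, and names in brackets are genes not on the array under their own symbol. Mettl21e is at 3.58, and the brightest probe sets of its neighbours run from -1.11 to 0.58.

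The genes most like Mettl21e were ranked by Pearson's r of log2 intensity over the 10 arrays. Because the Mettl21e groups lie far apart, this measure mainly finds genes that part the same 2 groups with little spread, and it is given as a description with no p. Of 17421 named probe sets, 45 had r of 0.9 or more and 21 had -0.9 or less. The 10 most like genes were Hspb8 (0.99), Tirap (0.97), Zfp318 (0.97), Igfbp5 (0.96), Tpd52l1 (0.96), Prkab2 (0.96), Carnmt1 (0.95), Rhpn2 (0.95), Uxs1 (0.94) and Myf6 (0.94). Of these Uxs1 and Igfbp5 are on chromosome 1, and the other 8 lie elsewhere. In the limma fit Hspb8 (adjusted p = 0.346), Tirap (0.0769), Igfbp5 (0.0526), Prkab2 (0.376), Carnmt1 (0.255) and Myf6 (0.218) did not pass. Zfp318 (0.0264), Tpd52l1 (0.0434), Rhpn2 (0.0176) and Uxs1 (0.0470) passed. Those calls were lost in 11, 11, 6 and 15 of 20 alternatives.

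Hspb8, a small heat shock protein that works with autophagy in muscle, had the closest likeness and a much smaller difference. It had 13.82, 13.84, 13.79, 13.84 and 13.81 in knockouts, against 13.63, 13.62, 13.61, 13.62 and 13.63 in controls. Values in a group lay almost on top of each other, and the difference was 0.20, or 1.15-fold. It did not pass (limma adjusted p = 0.346). Its other 2 probe sets were less like Mettl21e, with r of 0.54 and 0.72. Tirap, which links Toll-like receptors to their signalling, had 10.03, 10.14, 9.95, 10.12 and 10.16 in knockouts, against 9.51, 9.71, 9.56, 9.74 and 9.64 in controls. Knockout 3 was again the lowest of its group, and control 1 and control 3 the lowest of theirs, as for Mettl21e. Its other probe set had r of 0.81.

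Carnmt1 is itself a methyltransferase, which turns carnosine into anserine in muscle, though of another family. It had 12.99, 12.90, 12.95, 13.02 and 13.02 in knockouts, against 12.72, 12.78, 12.76, 12.71 and 12.69 in controls. Its groups did not overlap and differed by 0.24, or 1.18-fold, which did not pass (limma adjusted p = 0.255). Myf6, a myogenic transcription factor of mature fibres, differed by 0.27, and Prkab2, a subunit of the energy sensor AMPK that is common in muscle, by 0.21. Rhpn2 averaged 7.45 ± 0.20 in knockouts and 6.18 ± 0.20 in controls, and Zfp318, a zinc finger gene, 6.30 ± 0.22 in knockouts and 5.03 ± 0.27 in controls (SD, n = 5 each). The other Rhpn2 probe set gave a like difference of 1.13, while the other 2 of Zfp318 gave 0.16 and 0.40. Even these differences of 1.27 each were far below that of Mettl21e.

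**Figure D5:**
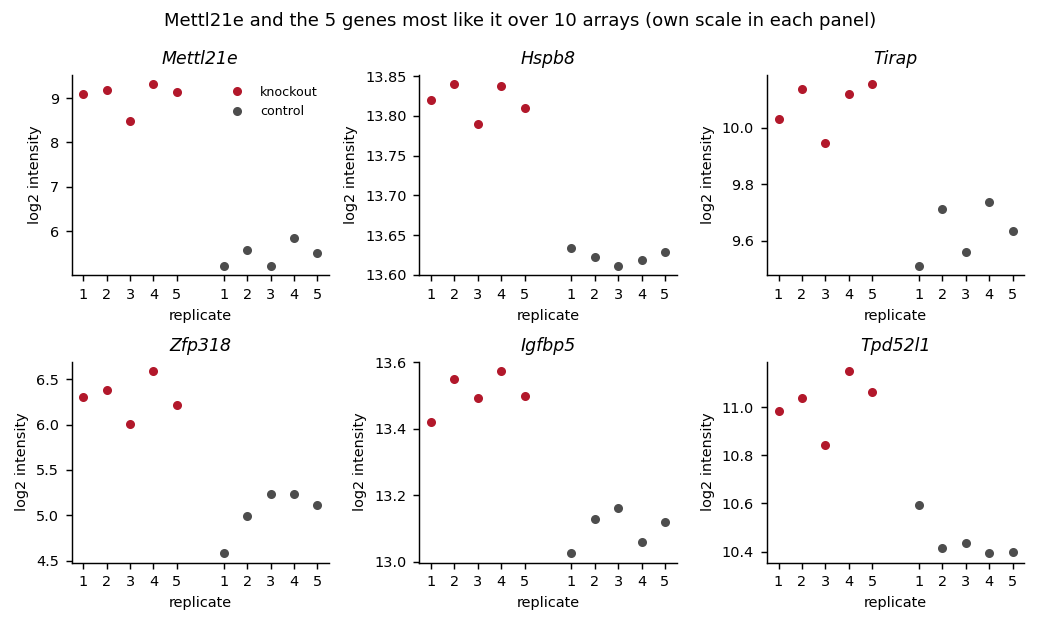
Log2 intensity on each array of Mettl21e and the 5 genes most like it over the 10 arrays, with knockouts on the left and controls on the right of each panel. Each panel has its own scale, and the Mettl21e panel spans over 3 log2 units while that of Hspb8 spans under 0.3. All 6 genes have every knockout above every control.

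The 5 most opposite genes were Col6a3 (r -0.95), Cercam (-0.94), Col1a2 (-0.94), Col1a1 (-0.94) and Col6a1 (-0.94). Of these, 4 are collagen chains and Cercam belongs to a family of collagen glycosyltransferases. Col6a3 had 8.66, 8.78, 8.77, 8.83 and 8.94 in knockouts, against 9.27, 9.33, 9.47, 9.32 and 9.39 in controls. Its groups did not overlap and differed by -0.56 (limma adjusted p = 0.0377, a call lost in 12 of 20 alternatives). Cercam passed as well (0.0264, lost in 11), and Col6a1 did not (0.0691).

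A measure without the group difference gave other genes. By r of deviations from the group means over the 10 arrays, the 5 most like genes were Smarcc1 (0.95), a subunit of a chromatin remodelling complex, Ttc14 (0.95), Arl2bp (0.94), the transcriptional repressor Bcl6 (0.94) and Nop10 (0.94), a protein of small nucleolar particles. Their group differences were 0.09, -0.14, 0.39, -0.03 and 0.04, and the groups of each overlapped. In all 5 genes knockout 3 was the lowest knockout, as for Mettl21e. The ranking itself favours this, because knockout 3 had the largest deviation of Mettl21e (-0.55), so nothing is read from it. Other probe sets of these genes were less like it, from -0.41 to 0.85. Of the 10 genes most like over the arrays, Tirap (0.90), Zfp318 (0.67), Prkab2 (0.62) and Hspb8 (0.60) had the highest values by this measure, while Rhpn2 had -0.15. The 5 most opposite genes were not opposite by it, with 0.04 for Col6a3, -0.21 for Cercam, -0.09 for Col1a2, -0.0087 for Col1a1 and 0.23 for Col6a1.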

How the data were processed

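Arrays of gastrocnemius RNA from 10 mice were used, prepared with Trizol and NuGEN kits per the labels' protocols. The deposited values are linear microarray intensity values for 45101 probe sets, made with GCRMA per the submitters' processing notes. Which GCRMA version was run is not given in the sources used here. GCRMA corrects background from probe sequence, normalizes arrays to each other and can compress dim values. The log2 was taken and nothing else was normalized. Arrays have no read depth, so their number limits the precision.

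In the platform annotation 34958 probe sets carried 1 symbol, 932 carried several and 9211 are unnamed here. Of the first, 34754 matched a gene in the GRCm38.p6 table by identifier and no symbol changed. The table was used for names and gene order only. After 64 array controls were left out, 21154 probe sets averaged at least 4 on the log2 scale and were kept. Knockout and control were fitted with lmFit and eBayes of limma 3.58.1 (R 4.3.3, two-sided tests, Benjamini-Hochberg over all kept probe sets, threshold 0.05), and the fit was tested on simulated data. The brightest probe set represented a gene unless another is named. In the likeness rankings a gene was represented by its first-ranked probe set, whatever its brightness. Col1a1 and Col1a2 there are therefore other probe sets than in the marker lists. The p-values weigh the group difference against the spread within groups of these 10 samples. The labels do not say how the mice were assigned or whether arrays were run together. An effect of either on the group difference could therefore not be assessed.

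The gene, the lists and the neighbours were chosen with earlier results of these data known. Named genes are all tested METTL21 relatives, the 3 members of lowest p in each other list, the 10 neighbours on each side, the 10 most like and 5 most opposite genes over the arrays and the 5 most like within groups. Unnamed transcripts were skipped. Vcp and the genes of the next largest gaps are named besides. No pair of arrays held identical values. Plots used matplotlib 3.10.9 and Python 3.11.15. Alternatives were quantile normalization, median centring, a floor at 4, no filter and a filter at 6, a variance trend with robust fit, array weights, a block for replicate numbers and each array left out.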

Additional observations from a re-analysis of the deposited data

Results flagged for a closer look

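In 134 groups of 5 arrays (Mettl21e and the named genes, knockout and control each), 13 held an array far from the other 4 by Dixon's test, where chance gives about 1 in 20, or 6.7. The genes share arrays, and 3 of them were named for resembling Mettl21e within groups, so these are not independent counts. Mettl21e was 8.49 (log2 intensity) in knockout 3, against 9.09 to 9.33 in the other knockouts. On the same array Ttc14 was 5.57 against 6.30 to 6.48, Bcl6 12.58 against 12.85 to 12.89 and Nop10 11.29 against 11.50 to 11.54. Control 3 was low for Eef1aknmt (4.16, against 5.98 to 6.45 in the other controls), Setd3 (10.89, against 11.06 to 11.08) and Bivm (4.44, against 5.87 to 6.23). Knockout 5 was high for Mettl23 (11.73, against 11.59 to 11.63), knockout 1 low for Myh7b (5.54, against 6.50 to 6.67) and knockout 2 low for Cercam (4.73, against 5.18 to 5.27). Control 5 was high for Mettl7a1 (10.13, against 9.75 to 9.81), control 4 low for Ecrg4 (6.68, against 8.12 to 8.61) and control 1 high for Tpd52l1 (10.60, against 10.39 to 10.44).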

How the results depend on the processing

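Under all 21 alternatives run, the Mettl21e difference lay between 3.50 and 3.71 (3.50 without knockout 4, 3.71 without knockout 3). In each of the 20 refits it was the largest difference among probe sets higher in knockouts. Lower ones were not ranked by size there. No METTL21 relative and no member of the 6 other lists passed under any alternative. The count of all probe sets past the threshold (21) depended on the processing. It was 36 after quantile normalization, 58 with a variance trend and robust fit, 67 with array weights, 11 with no filter and 1 to 17 with one array left out, namely 14 without control 1, 3 without control 2, 2 without control 3, knockout 1 or knockout 2, 1 without control 4, control 5, knockout 3 or knockout 4, and 17 without knockout 5. The causes were not tested. Of 2 alternatives chosen after seeing the data, the hybridisation controls as a covariate gave 99 and leaving out the 3 arrays of highest hybridisation controls gave 5. The main split was 11 higher and 10 lower. Median centring gave 17 higher and 11 lower, and the covariate 62 higher and 37 lower.

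Same-numbered arrays of the 2 groups had correlated deviations of -0.51, 0.13, 0.62, -0.20 and 0.19, so the numbers were not taken to pair mice. In a fit with these numbers as a replicate block, 1 probe set passed, Mettl21e itself, whose choice used this contrast and whose difference was again 3.58. Of the neighbouring genes, by their brightest probe set, 0 passed. Quantile normalization, array weights and the covariate each gave 2 (Uxs1 and Col5a2), median centring 1 and the variance trend 1 (Col5a2 in both), and leaving out one array 0 to 1.

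Of 66 named probe sets 20 changed sign somewhere, all with an adjusted p of 0.351 or more. After quantile normalization Eef2kmt was 0.00725, Mettl18 0.0035 and Poglut2 0.013. With median centring they were 0.00953, 0.0011 and 0.00963. With array weights Eef2kmt was 0.046, Etfbkmt 0.0094, Eef1akmt1 -0.00614, Tex30 -0.0205 and Poglut2 0.040. With the covariate Eef2kmt was 0.028 and Poglut2 0.027. Without the 3 arrays Eef2kmt was 0.11, Etfbkmt 0.060, Tex30 -0.076, Poglut2 0.089, Gulp1 0.042, Slc40a1 0.019 and Bcl6 0.011. With one array left out the ranges of the relatives were -0.17 to 0.052 for Vcpkmt, -0.13 to 0.069 for Eef2kmt, -0.12 to 0.072 for Mettl18, -0.032 to 0.11 for Mettl22, -0.070 to 0.012 for Mettl23 and -0.061 to 0.053 for Etfbkmt. They were -0.0023 to 0.13 for Eef1akmt1, -0.17 to 0.036 for Eef1akmt2, -0.12 to 0.50 for Eef1aknmt, -0.16 to 0.22 for Atpsckmt and -0.025 to 0.080 for Antkmt. Those of the neighbours were -0.039 to 0.12 for Tex30, -0.069 to 0.071 for Poglut2, -0.42 to 0.070 for Bivm, -0.11 to 0.066 for Gulp1, -0.025 to 0.11 for Wdr75 and -0.15 to 0.017 for Slc40a1. Those of the genes like Mettl21e within groups were -0.024 to 0.29 for Smarcc1, -0.21 to 0.027 for Ttc14 and -0.064 to 0.023 for Bcl6.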
